A study of Rattus norvegicus with 36 samples.

Results

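Sham-exposed rat hippocampus was compared with sham-exposed rat amygdala across all genes, with 5 hippocampus libraries and 4 amygdala libraries, which are 9 of the 36 libraries of the study. The members were all libraries labelled as sham in these regions, and their raw read counts were joined by Ensembl gene ID. The study sequenced RNA of amygdala, anterior cortex, hippocampus and cerebellum from rats collected 6 weeks after a blast exposure or a sham exposure. Every rat behind the 9 libraries had the sham procedure, so the controls also carry whatever handling that procedure involved. The labels name the species, the region, the exposure and the time, but no strain, genotype, sex, age or anaesthetic. They do not say how the regions were dissected or whether tissue of several rats was pooled. RNA was extracted with Qiazol and a Qiagen RNeasy column, and libraries were made with the NEBNext Ultra kit.

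The hippocampus is a folded sheet of cortex in which dentate granule cells, the CA fields and their connections form a loop used in spatial and episodic memory. The amygdala is a cluster of nuclei used in emotional learning. Its basal and lateral nuclei resemble cortex and are mostly glutamatergic, while its central and medial nuclei resemble striatum and are mostly GABAergic and rich in neuropeptides. Bulk RNA of each region holds neurons, glia, vessels and any neighbouring tissue caught in the dissection. A gene can therefore be lower because there were fewer cells of a type or because each cell held less of its RNA, and these cannot be told apart.

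The 5 hippocampus libraries held 15426786 to 23460322 counts on genes and the 4 amygdala libraries 15667480 to 20181023. Genes of the mitochondrial genome took 8.78% to 12.3% of counts in hippocampus and 10.8% to 14.4% in amygdala, with the number 18 library highest in both regions. On the principal components of log2 CPM (counts per gene scaled to the size of each library), the first component held 50.9% of the variance and separated the regions without overlap, while hippocampus 12 and hippocampus 18 lay at opposite ends of the second, with 9.9%. Hippocampus 12 also held the most transthyretin (Ttr), the main product of choroid plexus. The regions were deposited in separate tables, so region cannot be told apart from any batch that ran by region. Nothing in the labels says that the libraries come from separate animals, so the p-values measure the spread between these libraries only. Values below are given in the order of the library numbers, which are 10, 12, 13, 16 and 18 for hippocampus and 12, 13, 16 and 18 for amygdala. A gene was called at an adjusted p under 0.05 in edgeR's quasi-likelihood test, with p adjusted by Benjamini-Hochberg over all genes tested. Fold changes are log2 of hippocampus over amygdala with the standard error (SE), so positive values are higher in hippocampus.

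The regions differed in 5026 of 15688 tested genes, which is 32.0%. Hippocampus was higher for 2475 genes (15.8%) and amygdala for 2551 (16.3%). Each list count below is to be read against these shares. With a fitted difference of at least 2-fold as well, 449 genes (2.86%) were higher in hippocampus and 846 (5.39%) in amygdala. The CPM of the 2 groups did not overlap for 4423 (28.2%) of all genes tested, and 4102 of these were among the 5026 called. Calls and overlap come from the same libraries, so a lack of overlap is no separate support for a call. The median of the log2 fold change over all genes was -0.01, and its median size without sign was 0.22.

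Markers of dentate granule cells were higher in hippocampus. Of 9 tested markers of dentate granule cells, 7 were higher in hippocampus, none was higher in amygdala, and the median log2 fold change was 1.88. Prox1, the homeobox factor that sets granule cell identity, was at 138, 109, 147, 176 and 153 CPM in the hippocampus libraries and 19.6, 29, 22.6 and 17.3 CPM in the amygdala libraries. No amygdala library came near the lowest hippocampus library, and the log2 fold change was 2.71 ± 0.16 (SE; adjusted p = 9.74e-08). C1ql2, a complement-like protein that mossy fibres secrete at their synapses, was at 167, 176, 162, 158 and 180 CPM in the hippocampus libraries and 30.4, 35.9, 18.7 and 18.1 CPM in the amygdala libraries, a log2 fold change of 2.70 ± 0.18 (SE; adjusted p = 2.02e-07). Desmoplakin (Dsp), an intermediate filament anchor known as a granule cell marker, was at 28.1, 18.4, 32.1, 31.8 and 36.9 CPM in hippocampus and 2.78, 6.57, 3.29 and 3.71 in amygdala, a log2 fold change of 2.84 ± 0.26 (SE; adjusted p = 2.72e-06). Groups did not overlap for any of the 3. The cation channel Trpc6 (1.93 ± 0.11) and the kinase Plk5 (1.88 ± 0.10) followed on the same log2 scale. Calbindin (Calb1), which granule cells share with many other neurons, was at -0.15 ± 0.08 with adjusted p = 0.153 and was not called. The list of mossy cells, which lie in the dentate hilus, and Cajal-Retzius cells went the other way, with 4 of 5 tested members higher in amygdala, 1 in hippocampus and a median of -1.51. Reln, the secreted glycoprotein of Cajal-Retzius cells that interneurons also make, was at 50.2, 33.6, 55.3, 48.6 and 38.4 CPM in hippocampus and 110, 166, 134 and 106 in amygdala, a log2 fold change of -1.51 ± 0.16 (SE; adjusted p = 9.01e-06). Calretinin (Calb2, -2.16 ± 0.13) and the calcitonin-like receptor Calcrl (-0.75 ± 0.11) were also higher in amygdala, and 1 member of this list was matched only through a synonym. The member higher in hippocampus was Tp73, with a log2 fold change of 1.62 ± 0.28 (SE; adjusted p = 6.68e-04).

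**Figure D1:**
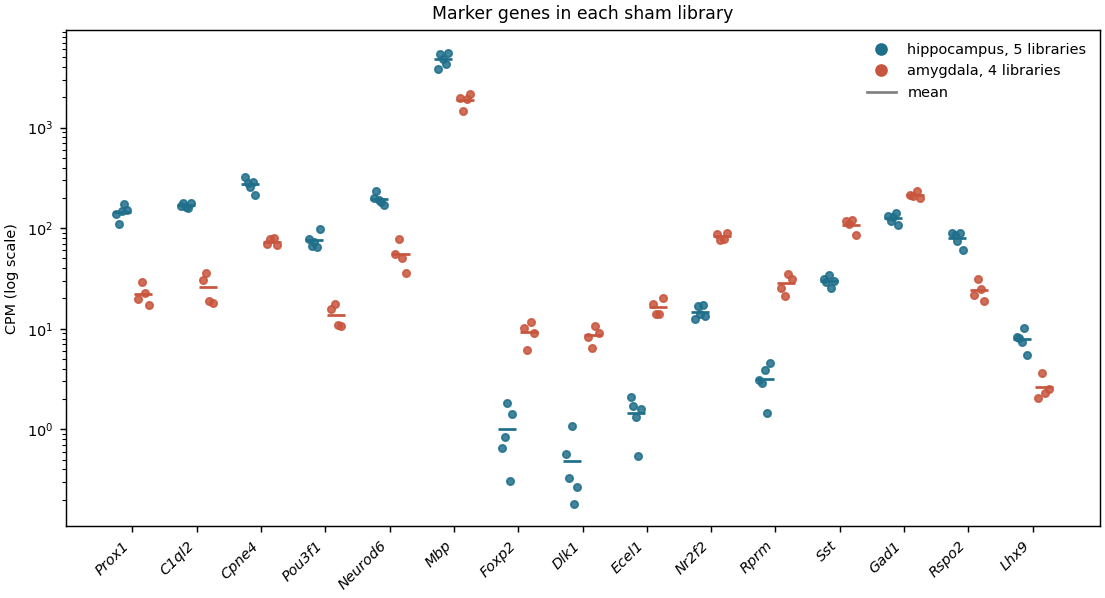
CPM on a log scale (vertical axis) of 15 marker genes in each sham library, with blue points for the 5 hippocampus libraries, red points for the 4 amygdala libraries and a line at each mean. The groups do not overlap for any gene drawn. Rspo2 and Lhx9, both listed as amygdala markers, lie higher in hippocampus.

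Markers of the CA fields were more divided. Of 8 CA3 markers, 5 were higher in hippocampus, with a list median of 1.00 on the log2 scale. The membrane-binding copine Cpne4 was at 322, 284, 258, 291 and 214 CPM in hippocampus and 69.2, 78.6, 79.4 and 67.6 in amygdala, and its log2 fold change was 1.89 ± 0.11 (SE; adjusted p = 7.04e-08). The kainate receptor subunit Grik4 (1.61 ± 0.10) and the Bcl-2 family member Bok (1.46 ± 0.10) were also higher in hippocampus. Coch, the extracellular matrix protein cochlin, went against its list and was at 4.43, 3.48, 4.45, 3.77 and 5.29 CPM in hippocampus and 34.7, 97.4, 54.9 and 61 in amygdala. Its log2 fold change was -3.86 ± 0.25 (SE; adjusted p = 2.11e-07), and every amygdala library exceeded every hippocampus library. Of 7 CA1 markers, 3 were higher in hippocampus and 1, the matricellular protein Ccn3 (-0.82 ± 0.18), in amygdala. The POU factor Pou3f1 had the largest difference of the CA1 list, at 77.3, 67, 73.2, 64.5 and 97 CPM in hippocampus and 15.8, 17.4, 10.8 and 10.7 in amygdala, with a log2 fold change of 2.46 ± 0.17 (SE; adjusted p = 2.65e-07). Of 6 CA2 markers, 2 were higher in hippocampus and 1 in amygdala, with a median of 0.03, against 15.8% and 16.3% of all genes tested.

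A set of 5 neuronal basic helix-loop-helix factors, grouped after their values were seen, was higher in hippocampus. Neurod2 was at 166, 151, 156, 165 and 152 CPM in hippocampus and 52.5, 56.1, 44.4 and 46.5 in amygdala, with a log2 fold change of 1.66 ± 0.07 (SE; adjusted p = 1.23e-08). Neurod6 (1.82 ± 0.17), Neurod1 (1.01 ± 0.11) and Neurog2 (1.52 ± 0.35) were called in the same direction. Nhlh1, a factor of the same class known from newly formed neurons, was at 10.9, 14, 16.5, 12.3 and 24.2 CPM in hippocampus and 1.27, 0.724, 0.261 and 0.384 in amygdala, a log2 fold change of 4.51 ± 0.37 (SE; adjusted p = 1.44e-06). The groups did not overlap for any of these 5 genes. Over 71 tested transcription factors of forebrain regions, 21 were higher in hippocampus and 29 in amygdala. Among 10 tested genes of newborn neurons and dividing cells, 3 were higher in hippocampus (Neurog2, Neurod1 and Mki67) and 2 in amygdala (Dcx and Sox11), with a median of 0.15. Over all genes tested these shares were 15.8% and 16.3%.

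Markers of the striatum-like nuclei were among the neuronal genes higher in amygdala. Of 15 tested markers of central, medial and intercalated nuclei, 10 were higher in amygdala, each by at least 2-fold, and 1 in hippocampus. Their median log2 fold change was -1.50. Foxp2, the forkhead factor of intercalated cells, was at 0.651, 0.846, 1.81, 0.304 and 1.41 CPM in hippocampus and 10.1, 6.11, 11.7 and 9.14 in amygdala, a log2 fold change of -3.20 ± 0.36 (SE; adjusted p = 1.73e-05). The endopeptidase Ecel1 was at 2.08, 1.69, 1.32, 0.547 and 1.61 CPM in hippocampus and 17.7, 14.1, 14.1 and 20.3 in amygdala, a log2 fold change of -3.48 ± 0.26 (SE; adjusted p = 5.35e-07). Protein kinase C delta (Prkcd), a marker of cells in the lateral central nucleus, was at 4.99, 7.19, 6.84, 6.69 and 7.23 CPM in hippocampus and 18.7, 23.5, 16 and 16.9 in amygdala, a log2 fold change of -1.51 ± 0.14 (SE; adjusted p = 4.18e-06). All 3 were without overlap between regions. The oestrogen receptor Esr1 (-1.64 ± 0.24) and aromatase Cyp19a1 (-1.92 ± 0.35), which makes oestradiol from androgens, were higher in amygdala too. Corticotropin-releasing hormone (Crh), expressed in the central nucleus, was at 1.09, 0.798, 1.03, 0.547 and 1.34 CPM in hippocampus and 1.47, 1.45, 2.14 and 1.09 in amygdala. Its libraries overlapped, and its log2 fold change of -0.68 ± 0.31 (SE; adjusted p = 0.118) was not called.

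A pair of genes listed for the amygdala ran the other way. Rspo2, a secreted Wnt enhancer used in mouse as a marker of basal amygdala neurons, was at 89.5, 85.4, 74.4, 88.8 and 60.1 CPM in hippocampus and 21.5, 31.1, 25 and 18.8 in amygdala, so that it was higher in every hippocampus library. Its log2 fold change was 1.72 ± 0.15 (SE; adjusted p = 2.34e-06). The LIM factor Lhx9 was at 8.25, 8.13, 7.38, 10.2 and 5.49 CPM in hippocampus and 2.05, 3.67, 2.3 and 2.49 in amygdala, a log2 fold change of 1.58 ± 0.22 (SE; adjusted p = 1.02e-04). Of the 9 tested markers of pallial amygdala, 2 were higher in hippocampus and 4 in amygdala. Nr2f2, a nuclear receptor of caudal forebrain, led the latter at 12.5, 17, 13.9, 17.3 and 13.2 CPM in hippocampus and 87.6, 75.5, 77.3 and 90.5 in amygdala, with a log2 fold change of -2.48 ± 0.11 (SE; adjusted p = 1.03e-08).

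Markers of striatum and of deep cortex also moved with the amygdala libraries. Of 18 markers of striatal projection neurons, 10 were higher in amygdala and 4 in hippocampus, with a median of -0.55. The dopamine receptor Drd2 was at 1.39, 1.08, 1.47, 1.09 and 1.14 CPM in hippocampus and 8.69, 4.5, 5.17 and 6.58 in amygdala, a log2 fold change of -2.33 ± 0.23 (SE; adjusted p = 5.97e-06). Drd1 (-1.23 ± 0.18) was lower in hippocampus as well, while Scn4b, a sodium channel beta subunit on the same list, was higher there (1.39 ± 0.11). Of 10 markers of deep cortical layers and claustrum, 8 were higher in amygdala and 2 in hippocampus, with a median of -1.57. Rprm, a cell cycle inhibitor known from deep layers, was at 3.13, 2.87, 3.91, 1.46 and 4.62 CPM in hippocampus and 25.6, 21.1, 35 and 31.6 in amygdala, a log2 fold change of -3.15 ± 0.24 (SE; adjusted p = 7.56e-07). The mean log2 CPM over the 10 genes was 2.60 to 3.18 in the hippocampus libraries and 4.19 to 4.37 in the amygdala libraries. When all 4 regions were scaled together, Rprm averaged 31.6 ± 7.3 CPM (SD, n = 5) in sham anterior cortex and 0.871 ± 0.333 (SD, n = 4) in sham cerebellum, levels set across separately deposited tables. The part of neighbouring tissue in these results was not tested.

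**Figure D2:**
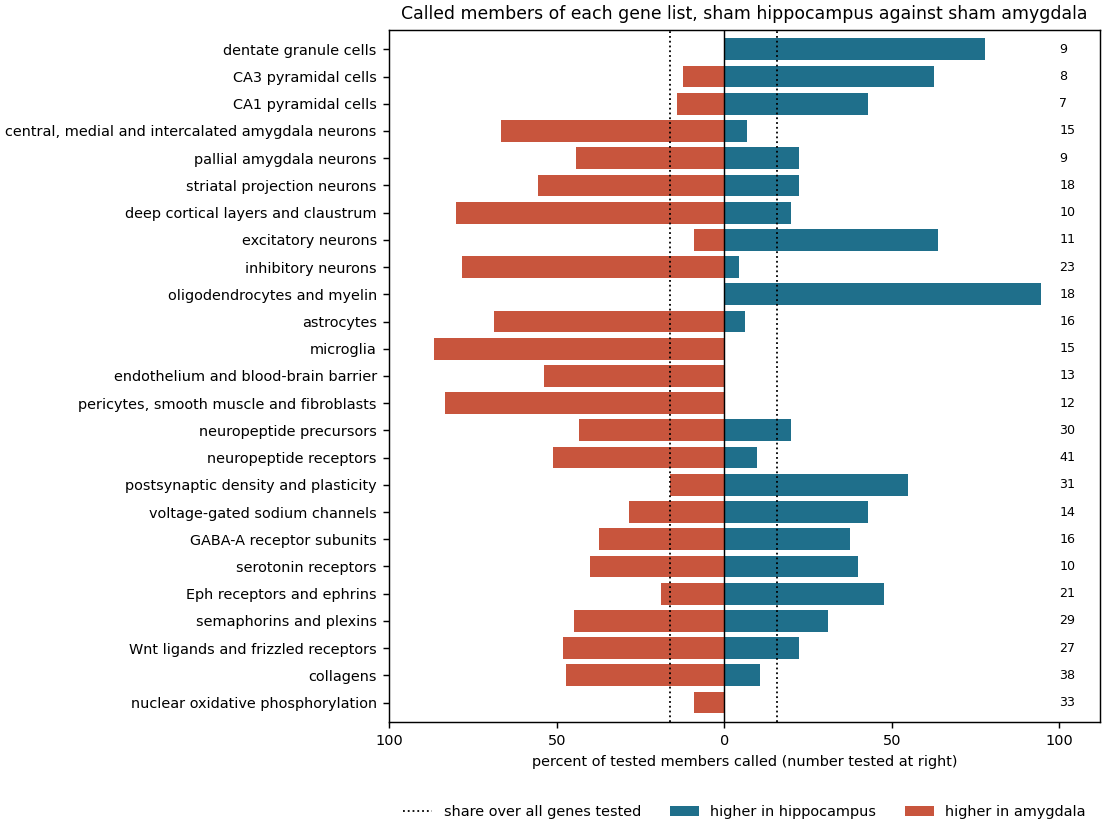
Percent of the tested members of 25 gene lists that were called higher in hippocampus (blue, to the right) or in amygdala (red, to the left), with the number tested at the right margin and dotted lines at the shares over all genes tested, 15.8% and 16.3%. Myelin and dentate lists lie to the right. Microglial, inhibitory and deep-layer lists lie to the left, as does the mixed list of pericytes, smooth muscle and fibroblasts.

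The balance of transmitter genes differed between the regions. Of 23 tested markers of inhibitory neurons, 18 were higher in amygdala and 1 in hippocampus, and the median was -0.81. Gad1 and Gad2 encode the enzymes that make GABA. Gad1 was at 132, 117, 129, 142 and 108 CPM in hippocampus and 216, 211, 235 and 199 in amygdala, a log2 fold change of -0.77 ± 0.08 (SE; adjusted p = 7.91e-06), and Gad2 had -0.81 ± 0.10. Calretinin (Calb2) was at 6.04, 6.91, 5.96, 7 and 5.29 CPM in hippocampus and 28.1, 22.7, 26.8 and 34.1 in amygdala, a log2 fold change of -2.16 ± 0.13 (SE; adjusted p = 1.05e-07). Parvalbumin (Pvalb), which marks fast-spiking interneurons, was the exception, at 25, 31.8, 27.2, 22.8 and 24.4 CPM in hippocampus and 16.9, 24.3, 16 and 15.6 in amygdala. One amygdala library, number 13, lay within the hippocampal range, and the log2 fold change was 0.53 ± 0.14 (SE; adjusted p = 0.0114). Its call was lost with all 36 libraries in the fit (adjusted p = 0.0853).

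Of 11 excitatory neuron genes, 7 were higher in hippocampus and 1 in amygdala. The vesicular glutamate transporters split. Slc17a7 (VGLUT1) was at 2354, 2273, 2141, 2115 and 1930 CPM in hippocampus and 1411, 1507, 1276 and 1306 in amygdala, a log2 fold change of 0.65 ± 0.08 (SE; adjusted p = 2.31e-05). Slc17a6 (VGLUT2) was at 4.21, 6.15, 6.55, 3.65 and 12.4 CPM in hippocampus and 17.8, 21, 28.4 and 22.8 in amygdala, a log2 fold change of -1.78 ± 0.28 (SE; adjusted p = 3.18e-04). Neither transporter overlapped between regions, and the direction was opposite. Of 31 genes of the postsynaptic density and of plasticity, 17 were higher in hippocampus and 5 in amygdala, with a median of 0.35. Homer3, a scaffold of metabotropic glutamate receptors, was at 94.7, 103, 82.6, 95.1 and 74.5 CPM in hippocampus and 23.4, 23.7, 24.4 and 21.4 in amygdala, a log2 fold change of 1.95 ± 0.10 (SE; adjusted p = 2.54e-08). The AMPA receptor auxiliary subunit Cnih2 (1.16 ± 0.07) and the kinase Camk2a (0.88 ± 0.09) were also higher in hippocampus.

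Myelin RNA was higher in hippocampus across almost the whole list. Of 18 oligodendrocyte and myelin genes, 17 were higher in hippocampus, with a median of 1.01, and the remaining one, Aspa, was not called. Myelin basic protein (Mbp) was at 3817, 5428, 4795, 4328 and 5541 CPM in hippocampus and 1973, 1465, 1935 and 2137 in amygdala, a log2 fold change of 1.35 ± 0.13 (SE; adjusted p = 5.23e-06). The myelin protein Mobp was at 462, 632, 649, 586 and 673 CPM in hippocampus and 234, 178, 219 and 250 in amygdala, a log2 fold change of 1.45 ± 0.12 (SE; adjusted p = 1.25e-06), again without overlap. Oligodendrocyte precursor genes did not share this, with 1 of 8 higher in hippocampus, Olig1, and 3 in amygdala.

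Other glial and vascular genes were higher in amygdala. All 15 microglial genes had fold changes below 0 and 13 were called, with a median of -0.57. The fractalkine receptor Cx3cr1 was at 19.1, 17.2, 19.5, 19.9 and 22.3 CPM in hippocampus and 28.2, 24.3, 26.8 and 29.5 in amygdala, a log2 fold change of -0.47 ± 0.09 (SE; adjusted p = 0.00136), and the adaptor Tyrobp had -0.74 ± 0.15. Of 16 astrocyte genes, 11 were higher in amygdala, led by the hyaluronan-linking Itih3 (-1.57 ± 0.11). Only the intermediate filament Gfap among the 16 was called higher in hippocampus, at 942, 1167, 921, 986 and 1050 CPM in hippocampus and 799, 616, 813 and 850 in amygdala, with a log2 fold change of 0.40 ± 0.10 (SE; adjusted p = 0.00722). With all 36 libraries in the fit the call was lost (adjusted p = 0.0865).

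Genes of pericytes, smooth muscle and fibroblasts were higher in amygdala for 10 of 12, with a median of -0.93, and those of endothelium for 7 of 13. The 2 of the 12 that were not called mark pericytes, and the largest differences of that list were in collagen genes. Another pericyte marker of the list, Pdgfrb, was called higher in amygdala, with a log2 fold change of -0.39 ± 0.10 (SE; adjusted p = 0.00678). Collagen I (Col1a1), made by fibroblasts, was at 8.38, 7.8, 8.31, 10.7 and 9.57 CPM in hippocampus and 41.9, 90.6, 47.9 and 47.4 in amygdala, a log2 fold change of -2.67 ± 0.21 (SE; adjusted p = 8.14e-07). Of 38 collagen genes, 18 were higher in amygdala and 4 in hippocampus. E-cadherin (Cdh1), an adhesion protein of epithelia and meninges, was at 0.13, 0.423, 0.635, 0.365 and 0.402 CPM in hippocampus and 3.08, 14.3, 7.93 and 7.29 in amygdala, a log2 fold change of -4.37 ± 0.45 (SE; adjusted p = 9.40e-06). Amygdala 13 was highest for Col1a1, Cdh1 and Coch. The 4 tested blood cell genes were all called higher in amygdala, with beta globin (Hbb) at 47.4, 81.2, 44.6, 60.4 and 33 CPM in hippocampus and 102, 95.6, 93 and 62.3 in amygdala and a log2 fold change of -0.73 ± 0.21 (SE; adjusted p = 0.0198). Globin genes come in near-identical copies that the counting could split, and the Hbb call was lost without hippocampus 13, amygdala 12 or amygdala 16, with adjusted p up to 0.0646. The part of attached meninges or residual blood in these results was not tested.

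Choroid plexus RNA rested on a single library. Ttr was at 10.3, 466, 38.1, 6.63 and 6.63 CPM in hippocampus and 2.2, 9.88, 4.23 and 10 in amygdala. Without hippocampus 12 its log2 fold change fell from 4.03 ± 1.30 to 1.25 with adjusted p = 0.124, and the median of the 11 tested choroid genes fell from 1.20 to -0.01. Leaving out any 1 of the amygdala libraries also ended the Ttr call, with adjusted p of 0.058 to 0.0864, but left its log2 fold change at 3.73 to 4.32.

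Neuropeptide precursors were called on both sides, more of them in amygdala. Of 30 tested precursors, 13 were higher in amygdala, 6 in hippocampus and 11 were not called, with a median of -0.54. Over all genes tested the shares were 16.3% for amygdala and 15.8% for hippocampus, and the hippocampal count was near its share. Somatostatin (Sst) was at 31.1, 29.4, 34.6, 25.6 and 30.1 CPM in hippocampus and 118, 110, 120 and 85.4 in amygdala, a log2 fold change of -1.84 ± 0.11 (SE; adjusted p = 8.81e-08). The substance P precursor Tac1 was at 3.3, 3.19, 3.91, 2.25 and 1.61 CPM in hippocampus and 17.7, 17.9, 16.6 and 12.7 in amygdala, a log2 fold change of -2.49 ± 0.21 (SE; adjusted p = 1.80e-06). Proenkephalin (Penk) was at 18.6, 18.9, 21.8, 15.6 and 23.8 CPM in hippocampus and 120, 43.1, 93.4 and 105 in amygdala, with amygdala 13 well below the other amygdala libraries and still above every hippocampus library. Its log2 fold change was -2.20 ± 0.23 (SE; adjusted p = 1.11e-05). Vasopressin (Avp) was at 0.347, 0.798, 0.635, 1.58 and 0.0669 CPM in hippocampus and 2.78, 0.621, 2.92 and 9.78 in amygdala, with most of the amygdala signal in library 18. The Avp log2 fold change of -2.53 ± 0.70 (adjusted p = 0.0144) dropped to -1.62 without that library, with adjusted p = 0.0874.

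Hippocampus was higher for prodynorphin, neurotensin and neuromedin B. Prodynorphin (Pdyn), the dynorphin precursor of granule cells, was at 67, 79.7, 68.7, 66.4 and 73.8 CPM in hippocampus and 22.4, 23.6, 21.6 and 20.9 in amygdala, a log2 fold change of 1.68 ± 0.08 (SE; adjusted p = 1.33e-08). Neurotensin (Nts) was at 12.1, 12.3, 15.5, 10.7 and 22.8 CPM in hippocampus and 1.95, 3.36, 4.38 and 3.71 in amygdala, a log2 fold change of 2.13 ± 0.26 (SE; adjusted p = 4.05e-05). Neuromedin B (Nmb) was at 5.86, 6.86, 3.91, 5.54 and 5.96 CPM in hippocampus and 0.83, 1.29, 0.94 and 0.831 in amygdala, a log2 fold change of 2.52 ± 0.23 (SE; adjusted p = 3.45e-06). None of the 3 overlapped between regions.

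A receptor of each of these 3 peptides lay on the other side, a comparison chosen after the values were seen. So did 21 of all 41 tested neuropeptide receptors and binding proteins, and a second neurotensin receptor was not called. The kappa opioid receptor Oprk1, bound by dynorphin, was at 0.695, 0.564, 0.587, 0.243 and 0.402 CPM in hippocampus and 3.08, 2.59, 2.71 and 6.07 in amygdala, a log2 fold change of -2.80 ± 0.35 (SE; adjusted p = 4.56e-05). The neurotensin receptor Ntsr1 was at 0.217, 0.892, 0.342, 0.304 and 1.27 CPM in hippocampus and 3.86, 4.4, 3.03 and 3 in amygdala, a log2 fold change of -2.59 ± 0.42 (SE; adjusted p = 3.90e-04). The neuromedin B receptor Nmbr was at 0.738, 0.94, 1.42, 0.973 and 0.335 CPM in hippocampus and 1.22, 1.81, 2.3 and 2.43 in amygdala, with overlapping libraries and a log2 fold change of -1.11 ± 0.36 (SE; adjusted p = 0.0307). The Nmbr call was lost without hippocampus 10, amygdala 13, amygdala 16 or amygdala 18, and its adjusted p over the libraries left out in turn reached 0.0892.

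Over 41 tested neuropeptide receptors and binding proteins, 21 were higher in amygdala, 17 of them by at least 2-fold, and 4 in hippocampus. The urocortin receptor Crhr2 was at 0.521, 1.88, 0.391, 0.426 and 0.201 CPM in hippocampus and 11.5, 10.1, 10.7 and 12.8 in amygdala, a log2 fold change of -3.98 ± 0.41 (SE; adjusted p = 9.05e-06). Its relative Crhr1 (-1.59 ± 0.17), the galanin receptor Galr1 (-3.31 ± 0.45) and the oxytocin receptor Oxtr (-2.21 ± 0.37) were called in the same direction. Somatostatin receptor Sstr4 was higher in hippocampus, at 26.2, 20.4, 23.5, 23.4 and 25.9 CPM in hippocampus and 11.9, 13.7, 13.1 and 11 in amygdala, with a log2 fold change of 0.94 ± 0.10 (SE; adjusted p = 1.33e-05). Sstr1 was higher in amygdala, as somatostatin itself was, with a log2 fold change of -2.14 ± 0.16 (SE; adjusted p = 6.61e-07), and Sstr2 was not called (-0.03 ± 0.15; adjusted p = 0.907).

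The cyclic AMP response element is the best known promoter motif of peptide genes, first studied at somatostatin. Of the 30 tested precursors, 21 had a promoter of 300 bases (250 before and 50 after the gene start) in the RefSeq table of build GRCr8. The palindrome TGACGTCA, which reads the same on both strands, was found in 4 of these 21 and in 2% of the 27457 genes of that table. The stretches around it are shown because the 4 genes hold the same letters and differ in direction between the regions, with the motif in capitals.
Sst (chr11:90461502-90461595, plus strand): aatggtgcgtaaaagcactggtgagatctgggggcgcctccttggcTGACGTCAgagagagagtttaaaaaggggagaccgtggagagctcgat
Cartpt (chr2:32991324-32991423, minus strand): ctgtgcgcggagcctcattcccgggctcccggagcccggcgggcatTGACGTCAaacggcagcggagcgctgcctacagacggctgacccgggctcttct
Scg2 (chr9:88256936-88257035, minus strand): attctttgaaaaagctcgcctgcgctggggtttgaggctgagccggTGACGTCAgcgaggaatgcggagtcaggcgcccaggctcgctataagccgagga
Vgf (chr12:25277057-25277156, minus strand): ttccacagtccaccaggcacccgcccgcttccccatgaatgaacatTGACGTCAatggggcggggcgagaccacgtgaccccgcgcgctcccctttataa

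Sst, Cartpt and Vgf were higher in amygdala and Scg2 in hippocampus. The cocaine- and amphetamine-regulated transcript Cartpt was at 5.6, 2.96, 5.67, 2.98 and 5.49 CPM in hippocampus and 15.5, 11, 10.1 and 12.6 in amygdala, a log2 fold change of -1.44 ± 0.22 (SE; adjusted p = 2.75e-04). The granin-like precursor Vgf was at 32, 32.7, 26.7, 31.9 and 30.4 CPM in hippocampus and 72.3, 44.7, 51.1 and 53.1 in amygdala, a log2 fold change of -0.85 ± 0.12 (SE; adjusted p = 1.37e-04). Secretogranin II (Scg2) was at 300, 328, 283, 302 and 275 CPM in hippocampus and 205, 213, 224 and 188 in amygdala, a log2 fold change of 0.52 ± 0.07 (SE; adjusted p = 5.79e-05). The groups overlapped for none of the 4. A match to letters is a description of these windows and no measure of factor binding.

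Of 17 genes of steroid receptors, targets and enzymes, 7 were higher in hippocampus, 3 in amygdala and 7 were not called. The mineralocorticoid receptor Nr3c2, which binds corticosterone with high affinity in limbic neurons, was at 114, 73.9, 102, 108 and 100 CPM in hippocampus and 31.4, 40.2, 29.3 and 29.8 in amygdala, a log2 fold change of 1.60 ± 0.13 (SE; adjusted p = 1.19e-06). The steroid-induced kinase Sgk1 was at 82.2, 87.6, 72.3, 76 and 60.9 CPM in hippocampus and 44.1, 43.6, 45.8 and 40.7 in amygdala, a log2 fold change of 0.80 ± 0.10 (SE; adjusted p = 3.01e-05), and the receptor chaperone Fkbp5 had 0.72 ± 0.07. Each was higher in all 5 hippocampus libraries than in any amygdala library. The glucocorticoid-induced Tsc22d3 (-0.00 ± 0.08; adjusted p = 0.983) and Per1 (0.09 ± 0.09; adjusted p = 0.494) were not called. The 3 genes higher in amygdala were Esr1, Cyp19a1 and the steroid reductase Akr1c14.

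Of 14 sodium channel genes, 6 were higher in hippocampus and 4 in amygdala. Beta subunits, which modify gating and adhere to other cells, were called higher in hippocampus. Pore-forming subunits were called on both sides. Scn3b was at 886, 913, 856, 839 and 887 CPM in hippocampus and 301, 326, 302 and 240 in amygdala, a log2 fold change of 1.58 ± 0.08 (SE; adjusted p = 3.30e-08). Scn4b (1.39 ± 0.11) and Scn2b (0.50 ± 0.10) followed.

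The pore-forming Scn10a and Scn11a, tetrodotoxin-resistant channels known from sensory neurons, were low and went the other way. They are neighbours on the minus strand of chromosome 8, at 128298594 to 128416650 and at 128450801 to 128521109 in the coordinates of the deposited tables, whose genome build no source used here names. Scn10a was at 0, 0.047, 0.147, 0 and 0.134 CPM in hippocampus and 0.684, 1.09, 0.679 and 1.34 in amygdala, a log2 fold change of -3.77 ± 0.62 (SE; adjusted p = 4.48e-04). Scn11a had 1 count over all hippocampus libraries and 79 over all amygdala libraries, a ratio of 106 per total count with a counting interval (exact 95%) of 18.5 to 4250. The brain channel Scn1a was at -0.11 ± 0.11 with adjusted p = 0.484 and was not called.

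GABA-A receptor subunits were split evenly, with 6 of 16 higher in each region. The X-linked neighbours Gabre, Gabra3 and Gabrq were all higher in amygdala. Gabra3, the alpha3 subunit, was at 16.9, 16.5, 19.1, 19.8 and 20.9 CPM in hippocampus and 70.8, 74.5, 70.3 and 71.8 in amygdala, a log2 fold change of -1.95 ± 0.08 (SE; adjusted p = 5.38e-09). Gabrq, the theta subunit, was at 0.0868, 0.188, 0.342, 0.0608 and 0 CPM in hippocampus and 1.66, 2.59, 2.4 and 1.92 in amygdala, a log2 fold change of -3.84 ± 0.49 (SE; adjusted p = 5.11e-05), and the epsilon subunit Gabre had -2.04 ± 0.42. A second cluster, on chromosome 1, was divided. Gabra5, the alpha5 subunit of extrasynaptic receptors, was at 210, 227, 197, 216 and 156 CPM in hippocampus and 107, 125, 102 and 80.5 in amygdala, a log2 fold change of 0.96 ± 0.12 (SE; adjusted p = 6.19e-05). Gabrg3, close to Gabra5 on the same strand, was at 2.3, 0.611, 2.35, 2.31 and 2.68 CPM in hippocampus and 6.59, 6.47, 7.31 and 6.14 in amygdala, a log2 fold change of -1.70 ± 0.30 (SE; adjusted p = 7.41e-04).

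Serotonin receptors were divided as clearly, with 4 of 10 higher in each region. Htr1a, the inhibitory Gi-coupled receptor, was at 36, 28.3, 35.4, 32.5 and 37.1 CPM in hippocampus and 9.86, 15.2, 9.61 and 6.52 in amygdala, a log2 fold change of 1.71 ± 0.19 (SE; adjusted p = 1.34e-05). Htr5b (2.38 ± 0.24) and the Gs-coupled Htr4 (1.11 ± 0.18) were also higher in hippocampus. The Gq-coupled Htr2c was at 16.1, 24.2, 30.4, 20.2 and 16.7 CPM in hippocampus and 117, 121, 130 and 106 in amygdala, a log2 fold change of -2.46 ± 0.16 (SE; adjusted p = 1.78e-07). Htr2a (-1.72 ± 0.16), of the same coupling class, and the ion channel Htr3a (-1.54 ± 0.17) joined it on the amygdala side.

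Glutamate receptors showed the same kind of division. The NMDA receptor subunit Grin2a was at 136, 68.4, 135, 155 and 139 CPM in hippocampus and 46.6, 62.5, 50.7 and 35.3 in amygdala, with hippocampus 12 far below the other hippocampus libraries but above all amygdala libraries, and a log2 fold change of 1.37 ± 0.21 (SE; adjusted p = 2.66e-04). The AMPA receptor subunit Gria1 had 1.04 ± 0.08. Grin3a, an NMDA receptor subunit known to lower calcium permeability, was at 3.69, 2.68, 6.65, 6.08 and 6.56 CPM in hippocampus and 19.1, 18.1, 21 and 19.4 in amygdala, a log2 fold change of -1.93 ± 0.22 (SE; adjusted p = 2.25e-05). The presynaptic metabotropic receptor Grm8 had -2.61 ± 0.28. Of 18 ionotropic subunits, 5 were higher in hippocampus and 6 in amygdala.

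Activity-regulated genes did not move together. Of 22 immediate early genes, 8 were higher in hippocampus and 2 in amygdala, with a median of 0.07. Bdnf, a neurotrophin induced by activity, was at 56.1, 55.2, 47.3, 52.5 and 43.1 CPM in hippocampus and 22.4, 20.7, 18.4 and 14.6 in amygdala, a log2 fold change of 1.41 ± 0.12 (SE; adjusted p = 1.82e-06), and Arc, a synaptic capsid-like protein, had 1.29 ± 0.20. Fos was at 2.82, 6.39, 5.87, 4.87 and 8.23 CPM in hippocampus and 9.67, 4.4, 5.22 and 8.12 in amygdala, with overlapping groups and a log2 fold change of -0.29 ± 0.29 (SE; adjusted p = 0.497).

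Genes of axon guidance and cell adhesion held some of the largest fold changes. Of 21 Eph receptors and ephrins, 10 were higher in hippocampus, 8 of them receptors, and 4 in amygdala, of which 3 were ephrins. The receptor Epha8 was at 121, 129, 109, 108 and 123 CPM in hippocampus and 11.4, 14.5, 9.81 and 10.5 in amygdala, a log2 fold change of 3.35 ± 0.11 (SE; adjusted p = 1.88e-09), and Epha7 had 2.24 ± 0.09. The ligand Efnb2 was at 20.6, 22, 23.9, 17.3 and 26.4 CPM in hippocampus and 77, 75.7, 77.2 and 77.3 in amygdala, a log2 fold change of -1.80 ± 0.10 (SE; adjusted p = 5.59e-08). The ligand Efna5 had -2.26 ± 0.35, and the number 18 amygdala library was its lowest. Ephrins were on both sides, since Efna2 and Efna3 were called higher in hippocampus.

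Robo3, a receptor of the Slit family pathway known from commissural axons, was at 86.1, 65, 77.3, 66.3 and 109 CPM in hippocampus and 3.32, 4.09, 3.6 and 3.77 in amygdala, a log2 fold change of 4.45 ± 0.17 (SE; adjusted p = 4.15e-09). The secreted repellent Sema3a was at 0.608, 0.235, 0.88, 0.73 and 0.535 CPM in hippocampus and 15.9, 13, 15.7 and 15.5 in amygdala, a log2 fold change of -4.64 ± 0.24 (SE; adjusted p = 3.30e-08). Its membrane-anchored relative Sema7a was higher in hippocampus (2.07 ± 0.10). Over 29 semaphorins and plexins, 9 were higher in hippocampus and 13 in amygdala.

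Wnt ligands included large differences in both directions. Wnt3a, a ligand of the cortical hem that the mouse hippocampus needs to form, was at 2.69, 2.49, 2.54, 1.16 and 3.75 CPM in hippocampus and 0, 0, 0 and 0.0639 in amygdala. It had 242 counts over the hippocampus libraries and 1 over the amygdala libraries, a ratio of 180 per total count with a counting interval (exact 95%) of 32.0 to 7130. Its neighbour on chromosome 10, Wnt9a, was at 1.31 ± 0.19 in the same direction. Wnt6 was at 0.0434, 0.282, 0, 0.0608 and 0.134 CPM in hippocampus and 2.93, 10.3, 4.28 and 3.45 in amygdala, highest in amygdala 13, with a log2 fold change of -5.57 ± 0.59 (SE; adjusted p = 1.15e-05). Wnt9b had -2.82 ± 0.27. Of 27 Wnt and frizzled genes, 6 were higher in hippocampus and 13 in amygdala.

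Cd3e, a chain of the T cell receptor complex, was among the 15 named for the largest fold changes toward hippocampus. It was at 7.04, 4.84, 6.01, 3.35 and 11.9 CPM in hippocampus and 0.146, 0.362, 0.418 and 0 in amygdala, with a log2 fold change of 4.75 ± 0.54 (SE; adjusted p = 1.89e-05). The other chains of the complex did not accompany it, a check chosen after the values were seen. Cd3d and Cd3g each had 0 to 2 counts in the hippocampus libraries, Cd247 had none, and Cd3e had 55 to 178. The T cell genes Cd2 and Cd8a had at most 1 and 6 counts in any hippocampus library. In any amygdala library Cd3d, Cd3g, Cd247, Cd2 and Cd8a had at most 4, 3, 4, 3 and 10 counts. Cd4 was not near 0, with 60 to 81 counts in the hippocampus libraries and 80 to 168 in the amygdala libraries.

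The potassium channel interactor Kcnip2 shows how a single library can set a large fold change. It was at 3.13, 2.25, 3.37, 44.6 and 1.87 CPM in hippocampus and 1.37, 0.88, 1.1 and 1.47 in amygdala, with hippocampus 16 far above the other hippocampus libraries. The log2 fold change of 3.18 ± 0.98 (SE; adjusted p = 0.0247) fell to 1.15 without that library, with adjusted p = 0.0088. Without any 1 of the 4 amygdala libraries the adjusted p was 0.0557 to 0.0655, past the threshold, while the log2 fold change stayed at 3.06 to 3.29.

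A chromosomal domain stood out among the amygdala-side genes and was chosen after the values were seen. The imprinted interval from Dlk1 to Dio3 on chromosome 6 spans 133552821 to 134629138 in the deposited coordinates, of an unnamed build. In mammals it expresses protein genes from the paternal chromosome and long noncoding RNA, small nucleolar RNA and miRNA from the maternal one. The tables hold 100 features within it, of which 21 passed the filter on low counts. Of the 21, 10 were called higher in amygdala and none in hippocampus, against 16.3% and 15.8% of all genes tested. The filter can pass a feature through the amygdala libraries alone, and 7 of the 21 did not reach its minimum of 0.54 CPM in 4 hippocampus libraries. The 14 that did were all below 0 and 9 of them were called higher in amygdala. With no filter, 72 of the 83 features with any count were below 0, against 52.6% of all genes. Of the 83, 13 were called higher in amygdala and none in hippocampus. Over all genes the fit with no filter called 2519 higher in amygdala and 2423 in hippocampus, of at most 22539 joined genes. The amygdala share of the 83 is near the 16.3% of all genes tested with the filter, which is a share over a different set of genes. Of the 10 tested genes on the left of the interval 3 were below 0, and of the 10 on its right 4, with medians of 0.09 and 0.07 and 1 gene called higher in amygdala on each side.

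The ends of the interval held its largest differences. Dlk1, a Notch-like membrane protein at 133552821 to 133583751, was at 0.565, 0.329, 1.07, 0.182 and 0.268 CPM in hippocampus and 8.3, 6.42, 10.7 and 9.14 in amygdala, a log2 fold change of -4.09 ± 0.36 (SE; adjusted p = 2.30e-06). Dio3, named for the deiodinase that inactivates thyroid hormone and annotated as a pseudogene in these tables, was at 0.565, 0.892, 1.27, 0.791 and 0.669 CPM in hippocampus and 6.93, 6.42, 4.91 and 8.18 in amygdala, a log2 fold change of -2.96 ± 0.25 (SE; adjusted p = 1.74e-06). The features between them differed less. The long noncoding RNA listed as AABR07065531.26, at 133667975 to 133676907, was at 585, 517, 562, 622 and 648 CPM in hippocampus and 968, 792, 832 and 1009 in amygdala, a log2 fold change of -0.62 ± 0.09 (SE; adjusted p = 1.09e-04). No library of one region overlapped the other for any of these 3.

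The miRNA genes of the interval are the part whose products are short guides to other transcripts. Of 9 miRNA genes tested there, 7 had mature sequences in the RefSeq table of build GRCr8. Those of the 3 that were both called and in that table are shown, 5′ to 3′ with the seed (bases 2 to 8) in capitals, because the seed sets which targets a miRNA can pair with.
rno-miR-770-5p: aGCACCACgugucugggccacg
rno-miR-770-3p: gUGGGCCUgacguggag
rno-miR-1188-5p: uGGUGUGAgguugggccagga
rno-miR-1188-3p: cGAGGCUCcccaccaca
rno-miR-410-5p: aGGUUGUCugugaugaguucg
rno-miR-410-3p: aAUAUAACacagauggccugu

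The 6 seeds differ from each other. Mir770 was at 87.3, 59.4, 71.5, 74.6 and 101 CPM in hippocampus and 138, 120, 125 and 143 in amygdala, a log2 fold change of -0.74 ± 0.12 (SE; adjusted p = 4.66e-04). Mir1188 was at 1.35, 0.798, 1.42, 1.16 and 1.54 CPM in hippocampus and 2.69, 2.79, 1.88 and 4.67 in amygdala, a log2 fold change of -1.26 ± 0.29 (SE; adjusted p = 0.00527). Mir410 was at 1.56, 1.69, 1.71, 1.28 and 1.67 CPM in hippocampus and 3.52, 2.48, 2.56 and 2.94 in amygdala, a log2 fold change of -0.86 ± 0.21 (SE; adjusted p = 0.00664). Each was higher in every amygdala library. These counts fell on the loci in libraries made from total RNA with a kit that does not select small RNA, so they can come from longer host transcripts, and mature miRNA was not measured.

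**Figure D3:**
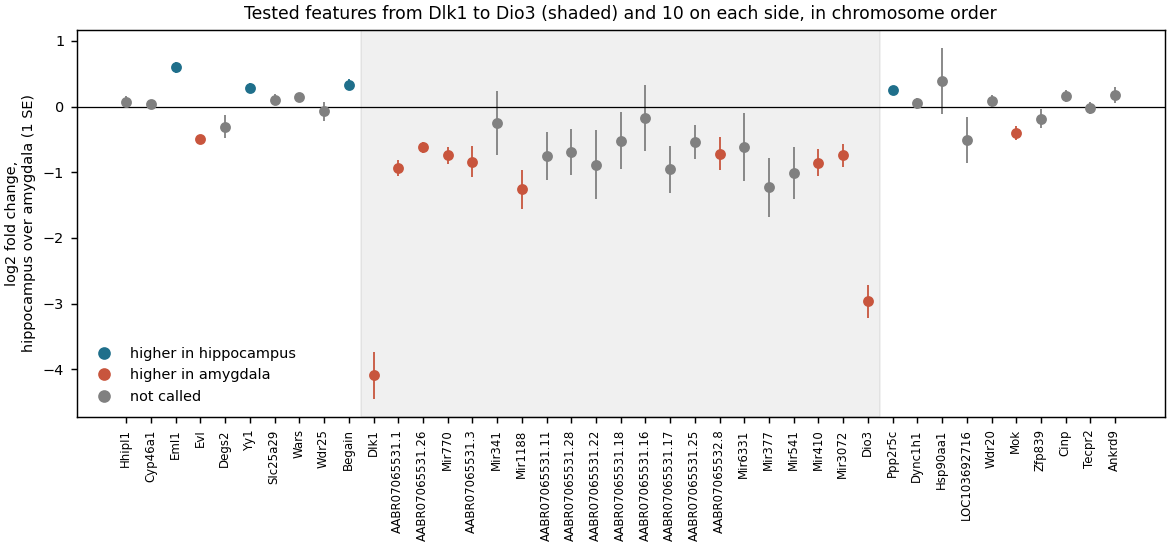
Log2 fold change of hippocampus over amygdala with 1 SE (vertical axis) for the 21 tested features from Dlk1 to Dio3 (shaded) and the 10 tested genes on each side, in chromosome order. Red points were called higher in amygdala, blue points higher in hippocampus and grey points were not called. The shaded points lie below 0, partly through a filter that some passed only in amygdala, and the flanking genes lie on both sides.

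Genes of general metabolism differed little. Of 33 nuclear genes of oxidative phosphorylation, 3 were called, all higher in amygdala, and none in hippocampus, with a median of -0.05. Of 14 common reference genes, 12 were not called. Gapdh had a log2 fold change of 0.04 ± 0.08 (SE; adjusted p = 0.75), which became -0.01 without hippocampus 12. Beta-actin (Actb) was at 1612, 1634, 1602, 1681 and 1491 CPM in hippocampus and 1166, 1114, 1019 and 1010 in amygdala, a log2 fold change of 0.57 ± 0.06 (SE; adjusted p = 1.80e-05), and B2m had -0.39 ± 0.06 in the other direction. Those 2 genes therefore differed between the regions beyond the spread of the libraries.

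The same regional comparison was made in the blast-exposed libraries, 5 of each region, which share no library with the sham comparison. There 3306 of 15569 genes were called, which is 21.2%, with 1566 (10.1%) higher in hippocampus and 1740 (11.2%) in amygdala. Of the genes called in sham libraries, 4965 were tested there and 4870 of these (98.1%) had the same direction. Of these, 2734 were also called, and no gene was called in the opposite direction. Prox1, Cpne4, Rspo2, Foxp2 and Dlk1 kept their direction, with blast log2 fold changes of 2.54, 1.84, 1.70, -2.19 and -3.15. Of the features from Dlk1 to Dio3, 19 passed the filter in blast libraries and 7 of them were called higher in amygdala, against 11.2% of all genes tested there.

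The region by exposure interaction asks whether the regional difference itself changed with blast. It called 0 of 16349 genes in edgeR, with 435 at an unadjusted p under 0.05 and a smallest adjusted p of 0.9998, and 0 in DESeq2. In simulated counts for this test, 77.3% of genes changed 4-fold, 56.7% of genes changed 2-fold and 26.9% of genes changed 1.5-fold were recovered. Large changes could therefore be missed as well as small ones, the small ones more often. Of the 1234 genes called by at least 2-fold in sham and tested in blast, 27 had the opposite sign in blast libraries. Kcnip2 was among them, at a blast log2 fold change of -0.92, not called. Htr2c kept its sign but had a blast log2 fold change of -0.19 (adjusted p = 0.883), and its interaction had adjusted p = 0.9998. The choroid plexus list had a median log2 fold change of 2.07 in the blast libraries, and any part of choroid plexus in the Htr2c value was not tested.

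**Figure D4:**
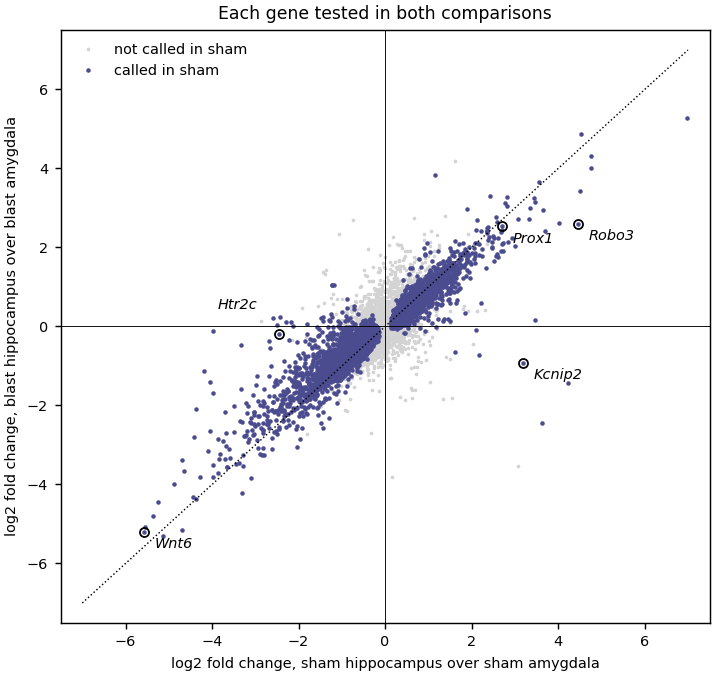
Log2 fold change of hippocampus over amygdala in sham libraries (horizontal axis) against the same in blast libraries (vertical axis) for every gene tested in both, with dark points called in sham and a dotted line of equal values. Of the dark points 4870 of 4965 share a sign. Circled genes include Htr2c, close to 0 in blast, and Kcnip2, of opposite sign.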

How the data were processed

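RNA of 9 sham libraries (5 hippocampus, 4 amygdala) was analysed from the deposited read counts per gene. Per the submitters' processing notes CASAVA was used, with no version given. No source used here names the aligner, the counter or the genome build. The tables also hold deposited FPKM and a gene length (other), from which no printed value comes, and 36 further per-sample columns that were matched to no sample and not used. Counts of 22539 genes found in both tables were joined by Ensembl ID, filtered with filterByExpr and scaled by TMM, leaving 15688 genes, and tested with edgeR 4.0.16 (R 4.3.3) by its quasi-likelihood test with Benjamini-Hochberg adjustment. CPM used the TMM-scaled library sizes, and log2 CPM had a prior count of 2. In counts simulated for the sham comparison, 68.7% of genes changed 1.5-fold, 74.6% of genes changed 2-fold and 97.0% of genes changed 4-fold were called. Within each group, libraries differed by more than sampling noise, with a chi-square per degree of freedom of 8.27 or more for every pair, so no library was counted as a duplicate.

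The members and the 49 gene lists were chosen with earlier results of these data known, so list counts are descriptions. Of 967 listed genes 950 matched and 859 were tested. Genes named in the text were chosen per direction as the 15 largest fold changes (called, at least 2-fold, no overlap, 5 CPM or more) and the 10 largest CPM differences. From each list came up to 6 called members a direction and 2 nearest to no change, and a short set of fixed markers was added. Galr1, Oxtr, Ntsr1, Nmbr, Cartpt, Vgf, Fos, Sstr2, Per1, Tsc22d3, Pdgfrb and the features from Dlk1 to Dio3 were chosen after the values were seen. Promoter and miRNA sequences are RefSeq's, of build GRCr8, and their coordinates are not those of the count tables. Protein sequences were not used here, and some genes are not reported here. Alternatives were DESeq2 1.42.0, limma-voom 3.58.1, other filters, scalings, gene joins, fits and left-out libraries. Counting intervals cover counting error only.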

Additional observations from a re-analysis of the deposited data

Results flagged for a closer look

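Of 254 groups of values, 16 held a library far from the others by Dixon's test, which flags about 1 in 20 groups by chance. The groups were 1 for each region and each of 127 genes named in the text. In hippocampus 12, Ttr was 466 CPM against 6.63 to 38.1 in the other hippocampus libraries. In the same library Crhr2 was 1.88, Fkbp5 78.6, Grin2a 68.4 and Gabrg3 0.611 CPM, the first pair above and the last pair below the others. Scn11a had its only hippocampal count there (0.047 CPM). Hippocampus 16 held Kcnip2 at 44.6 CPM against 1.87 to 3.37 in the others, and hippocampus 10 was lowest for Prkcd at 4.99 CPM.

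Among amygdala libraries, number 13 was highest for Col1a1 (90.6 CPM), Pvalb (24.3 CPM) and Bok (28.3 CPM) and lowest for Sema3a (13 CPM). Number 18 was highest for Oprk1 (6.07 CPM), lowest for Efna5 (1.34 CPM) and alone in holding a Wnt3a count (0.0639 CPM). Number 12 was lowest for B2m (264 CPM).

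Genes listed in 1 regional table only were outside the comparison. Over the sham libraries of the amygdala table, Olig3 had 55 counts and Npc1l1 25. Over those of the hippocampus table, Sun5 had 14 and Doxl2 9.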

How the results depend on the processing

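The calls by region were recomputed under 16 other settings and in the blast libraries. The number higher in hippocampus, 2475, ranged from 2046 to 2624 when each library was left out in turn, and the number higher in amygdala, 2551, from 2180 to 2595. At 2-fold or more the corresponding ranges were 424 to 463 and 779 to 889. The blast libraries gave 1566 genes higher in hippocampus. A test against a 2-fold difference itself (glmTreat) gave 176 genes higher in hippocampus and 340 in amygdala, against 449 and 846 with the fitted fold as a threshold. Without both number 18 libraries, an alternative chosen after seeing the data, 2072 were higher in hippocampus and 2244 in amygdala, and without hippocampus 12 as well, 2260 and 2407. Upper-quartile scaling moved the median log2 fold change of all genes to -0.05, and 41.5% of its calls were higher in hippocampus against 49.2%. Blast calls ranged from 2506 to 4649 with each blast library left out, the most without blast hippocampus 6. Interaction calls were 0 in DESeq2, in the fit with the replicate block and without any of the 19 libraries.

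The labels number libraries alike in both regions. Correlations of deviations between libraries of the same number were 0.11 (12), 0.128 (13), 0.0944 (16) and 0.126 (18). Every library correlated best with its own number, a hint from the data and not the design. Because 1 value was below the limit set for pairing, the libraries were not fitted as pairs in the main test. The labels do not say whether libraries of the same number share an animal, and these values cannot settle it. With the replicate block, 2328 genes were higher in hippocampus and 2420 in amygdala (429 and 795 at 2-fold or more), and Ttr, Avp and Nmbr were not called (adjusted p of 0.144, 0.0882 and 0.0918).

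Of 119 called genes of the text that were followed through the 16 settings, all but 7 kept direction and call. A setting that gave a gene no adjusted p was passed over for that gene. The 7 were Pvalb, Gfap, Ttr, Hbb, Avp, Nmbr and Kcnip2. Of 784 recomputed list medians, 34 moved by more than 1 SD between libraries. Gapdh, not called, ranged from -0.011 without hippocampus 12 to 0.089 without amygdala 13. Of 2 other genes not called, the log2 fold change of Sstr2 ranged from -0.114 to 0.105 and the log2 fold change of Tsc22d3 from -0.0655 to 0.0318 with a library left out, and they were 0.0396 and 0.0172 with the replicate block. Tsc22d3 was 0.00423 with no filter. The cause of these changes was not tested. The depth limits calls of low genes, and library numbers, tissue limits and build remain unstated.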
